A study of Mus musculus with 8 samples.

Results

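The 9 transcripts described here are long non-coding RNAs whose loci hold or overlap miRNA hairpins: *Mir17hg*, *Mir22hg*, *C430049B03Rik*, *Dleu2*, *Mir143hg*, *Snhg20*, *Snhg4*, *Snhg10* and *Dubr*. They are 9 of the 24385 genes in a table of expression in mouse embryonic hearts, and were picked by name from loci outside the imprinted domains. They were listed with cKO against WT values of these same libraries known, so those differences are given as a description, with no test. Of the 9, 8 had a mean of at least 1 FPKM over all libraries (fragments for each kilobase of a transcript, relative to the library's mapped total) and entered the fit over 10018 features. *Dleu2* had a mean of 0.363 FPKM and did not.

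The hearts were from C57BL/6 embryos at embryonic day 8.5 (E8.5) or 9.5 (E9.5), with 2 libraries in each of 4 groups. The cKO embryos are labelled Mesp1Cre/+; Dgcr8-/-. By the study's methods they carried Mesp1 Cre/+, 2 floxed *Dgcr8* alleles and a Rosa26 mT/mG reporter. The WT embryos, labelled wild type, had the same floxed alleles and reporter without Cre. Cre is driven by *Mesp1* in early cardiovascular progenitors, so cells of other origin in a dissected heart kept *Dgcr8*. Neither the number of hearts in a library nor whether the 2 libraries of a group came from separate litters is given in the sources used here, so each p-value measures the spread between these libraries only.

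The product of *Dgcr8* binds RNA and works with the nuclease Drosha. Together they form the microprocessor, which cuts hairpins out of long primary transcripts, and the cut hairpins are then diced into mature miRNAs. A host transcript is such a primary transcript. The miR-17 cluster in *Mir17hg* is known for its role in proliferation and in heart growth, the cluster in *C430049B03Rik* and the pair in *Dleu2* for restraint of the cell cycle, miR-22 for cardiac hypertrophy, and miR-143 and miR-145 for smooth muscle. *Snhg4*, *Snhg10* and *Snhg20* are members of the small nucleolar RNA host gene family, whose spliced RNA is made beside small RNAs that modify other RNAs. In the tables used here a small RNA gene lies inside *Snhg4* and *Snhg10*, and for *Snhg20* the family rests on its symbol only.

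The mature miRNAs show what these loci encode. Sequences are from RefSeq on GRCm38.p6, written 5′ to 3′, with the seed (bases 2 to 8, which pair with targets) in capitals. The first set belongs to the 3 hosts that stood above WT in each cKO library at both stages, *Mir17hg*, *Mir22hg* and *C430049B03Rik*, and to *Dleu2*, which shares a seed with one of them.
mmu-miR-17-5p: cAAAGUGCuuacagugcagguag
mmu-miR-20a-5p: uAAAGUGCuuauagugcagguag
mmu-miR-18a-5p: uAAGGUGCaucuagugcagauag
mmu-miR-19a-3p: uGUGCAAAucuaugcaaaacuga
mmu-miR-19b-3p: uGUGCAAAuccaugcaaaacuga
mmu-miR-92a-3p: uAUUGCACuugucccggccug
mmu-miR-22-3p: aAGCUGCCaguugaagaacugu
mmu-miR-322-5p: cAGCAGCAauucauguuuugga
mmu-miR-503-5p: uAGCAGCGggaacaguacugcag
mmu-miR-351-5p: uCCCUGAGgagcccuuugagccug
mmu-miR-15a-5p: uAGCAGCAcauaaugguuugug
mmu-miR-16-5p: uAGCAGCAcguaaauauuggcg
The *Mir17hg* locus holds 2 pairs with a common seed, miR-17-5p with miR-20a-5p and miR-19a-3p with miR-19b-3p. The seed AGCAGCA occurs in 3 of these miRNAs and in 2 hosts on different chromosomes, miR-15a-5p and miR-16-5p of *Dleu2* and miR-322-5p of *C430049B03Rik*. In the RefSeq table used, 10 of 1679 mature miRNAs carry it.

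The second set belongs to loci where the cKO libraries did not stand above the WT libraries at either stage.
mmu-miR-6516-5p: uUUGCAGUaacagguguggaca
mmu-miR-3069-5p: uUGGCAGUcaagauauuguuuagc
mmu-miR-6363: uGUAGACUggacuguccucaaa
Each of these seeds occurs in 1 of the 1679 mature miRNAs. miR-6516 lies in *Snhg20* and miR-3069 in *Snhg10*, where its hairpin overlaps *Scarna13*, a small Cajal body RNA. miR-6363 lies in the *Dubr* locus on the opposite strand, so by strand *Dubr* is not its primary transcript and the word host does not describe it. *Mir143*, *Mir145a* and *Mir1949*, in *Mir143hg* and *Snhg4*, are named only.

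The hairpins themselves differ as well. The following hairpins, with the mature arms in capitals, are a strongly folding one from a locus that was higher in cKO hearts, *Mir503* of *C430049B03Rik*, that of *Mir22hg*, and those of *Snhg10* and *Dubr*.
Mir503: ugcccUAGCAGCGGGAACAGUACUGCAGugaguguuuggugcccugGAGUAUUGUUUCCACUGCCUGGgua
Mir22: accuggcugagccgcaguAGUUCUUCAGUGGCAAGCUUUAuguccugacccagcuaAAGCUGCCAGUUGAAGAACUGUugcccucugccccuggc
Mir3069: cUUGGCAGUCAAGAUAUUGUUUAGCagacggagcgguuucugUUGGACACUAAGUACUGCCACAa
Mir6363: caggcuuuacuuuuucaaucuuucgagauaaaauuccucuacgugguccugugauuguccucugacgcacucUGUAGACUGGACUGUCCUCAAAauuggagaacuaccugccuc
The predicted minimum folding energy per base was -0.53 kcal/mol for *Mir503*, -0.441 for *Mir22*, -0.317 for *Mir3069* and -0.203 for *Mir6363*, against a median of -0.406 over 1005 mouse hairpins. Of all these hairpins 99.1% folded at least as stably per base as *Mir6363*, and 83.6% as *Mir3069*. The 6 hairpins of the miR-17 cluster ranged from -0.304 (*Mir18*) to -0.472 (*Mir19a*). This range takes in *Mir3069* and also *Mir6516* of *Snhg20* (-0.32), so folding energy did not separate the loci higher in cKO hearts from the others.

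The 9 loci are spread over 6 chromosomes and the table positions match GRCm38. All 9 are annotated as long non-coding RNA in RefSeq, where *Mir143hg* is named *Carmn*. *Mir17hg* is at chr14:115044390-115046728 on the plus strand, *Mir22hg* at chr11:75461539-75466690 on the plus strand and *C430049B03Rik* at chrX:53053112-53057190 on the minus strand. *Dleu2* spans chr14:61602836-61682373 on the minus strand. *Snhg20* is at chr11:117076783-117078955 (plus), *Snhg10* at chr12:105030617-105032279 (minus) and *Dubr* at chr16:50726751-50732773 (minus). In the NCBIM37 annotation, an older build used here only for exon structure, the *Mir22* hairpin and all 6 hairpins of the miR-17 cluster lie within exons of both transcripts that span them.

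The *Mir17hg* row of the table does not cover most of the cluster. It starts inside the *Mir19b-1* hairpin, and of the 6 hairpins only *Mir92-1* lies whole within its 2339 bases, while *Mir17*, *Mir18*, *Mir19a* and *Mir20a* end between 636 and 127 bases before its start. The *Mir17hg* level is therefore read from the part of the primary transcript that follows most of the hairpins. In the NCBIM37 annotation the locus is 3849 bases long and holds all 6. The 300 bases around the start of the row, chr14:115044140-115044439 on the plus strand, are printed with the mature miR-20a and miR-19b-1 arms in capitals. The row begins at base 251 of the run, past the last arm in capitals.
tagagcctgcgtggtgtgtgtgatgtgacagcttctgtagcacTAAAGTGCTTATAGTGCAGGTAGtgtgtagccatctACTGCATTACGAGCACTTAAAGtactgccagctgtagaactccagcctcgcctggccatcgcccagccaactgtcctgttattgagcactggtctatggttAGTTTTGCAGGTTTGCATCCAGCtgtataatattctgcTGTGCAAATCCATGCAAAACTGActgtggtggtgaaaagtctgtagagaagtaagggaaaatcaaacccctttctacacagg

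**Figure D1:**
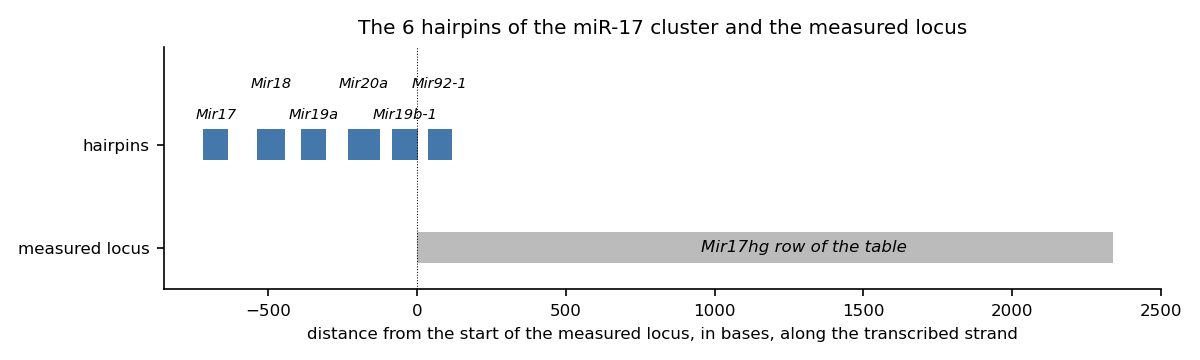
Map of the miR-17 cluster (blue, 6 hairpins) and the measured *Mir17hg* locus (grey, 2339 bases), in bases from the start of the locus along the transcribed strand. The first 4 hairpins lie before the start, *Mir19b-1* crosses it and *Mir92-1* lies inside.

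The hairpin rows of the table carry no signal to set beside the hosts. All 14 precursor rows in or across the 9 loci were listed at 0 FPKM in each of the 8 libraries, as were 1146 of all 1157 precursor rows (99.0%).

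Depth differed between libraries by up to 1.45 times relative to the shallowest, as read from the steps of low FPKM values, and absolute depth was not recovered. The targeted gene followed its labels: at E8.5 *Dgcr8* had 7.10 and 8.60 FPKM in WT hearts against 1.64 and 4.67 in cKO hearts, and at E9.5 3.49 and 3.23 against 1.15 and 1.77. All 8 listed cardiomyocyte markers were detected, with a summed level of 25650 to 79080 FPKM. Genes listed as markers of other tissues were detected too. The 5 erythroid markers summed to 7769 to 39580 FPKM over all libraries. The 5 yolk sac endoderm markers summed to 545.8 to 1775 FPKM in E8.5 WT and 3936 to 5262 in E9.5 WT hearts. In cKO hearts their sums were 1424 to 4704 at E8.5 and 3047 to 5019 at E9.5. The 6 markers of uterine natural killer and myeloid cells had sums at E8.5 of 88.1 to 395 FPKM in WT hearts and 5.84 to 264.5 in cKO hearts, against 8.03 to 14.4 at E9.5. The 6 genes listed for decidual stroma summed to 996 to 6801 FPKM at E8.5 and 934.5 to 1379 at E9.5. They include *Des*, *Hand2*, *Bmp2* and *Cryab*, so the sum is not a measure of decidua alone. The part of all these markers in the values of the hosts was not tested. Between libraries, 15.7% to 54.5% of summed FPKM fell in loci under 300 bases, and the median FPKM of tested features was 7.62 to 9.90 at E8.5 and 3.85 to 4.50 at E9.5.

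*Mir17hg*, *Mir22hg* and *C430049B03Rik*, each the host of a canonical hairpin or cluster, were several-fold higher in cKO than in WT hearts at both stages. *Dleu2* was higher at E8.5 and *Mir143hg* at E9.5. *Snhg4* and *Snhg20*, named as small nucleolar RNA hosts, were lower in each cKO library at both stages, and *Snhg10* and *Dubr* at E8.5. The lower E8.5 values of *Snhg20*, *Snhg10* and *Dubr* depend on scaling: their differences of -0.48, -0.51 and -0.60 in log2(FPKM + 1) were -0.13, -0.27 and -0.36 with quantile normalization and -0.16, -0.24 and -0.32 with median-ratio scaling. Without E8.5 WT replicate 2 that of *Snhg20* was -0.19, and without E8.5 cKO replicate 1 that of *Dubr* was -0.23.

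At E8.5 the WT libraries held *Mir17hg* at 1.08 and 1.31 FPKM and the cKO libraries at 18.2 and 21.7. At E9.5 it was at 0.241 and 0.768 FPKM in WT and at 11.3 and 10.9 in cKO. The cKO libraries stood above the WT libraries at both stages with no overlap, and the lowest cKO library was 13.8 times the highest WT library at E8.5 and 14.2 times at E9.5. The mean was 1.195 ± 0.168 FPKM in WT against 19.9 ± 2.47 in cKO at the earlier stage, and 0.505 ± 0.372 against 11.1 ± 0.269 at the later one (SD, n = 2), ratios of 16.7 and 21.97. The WT level at E9.5 is the less certain part of the second ratio, since its 2 libraries differed 3.18-fold.

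*Mir22hg* was at 1.79 and 1.73 FPKM in E8.5 WT hearts and at 8.83 and 9.55 in E8.5 cKO, a ratio of means of 5.22. At E9.5 the WT libraries were at 0.248 and 0.477 FPKM and the cKO libraries at 4.80 and 3.64, a ratio of 11.6. The groups did not overlap at either stage, and replicates within a group differed by at most 1.93-fold.

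*C430049B03Rik*, which holds *Mir322*, *Mir503* and *Mir351* on its own strand, had the highest level of the 9 (mean 19.6 FPKM, above 88.5% of the genes in the table). At E8.5 the WT libraries were at 5.38 and 4.47 FPKM and the cKO libraries at 25.6 and 34.98. At E9.5 the WT libraries were at 5.51 and 6.24 and the cKO libraries at 35.2 and 39.5. The ratios of means were 6.15 at E8.5 and 6.36 at E9.5, and no cKO library overlapped a WT library.

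*Dleu2*, the host of *Mir15a* and *Mir16-1*, was at 0.144 and 0.140 FPKM in E8.5 WT hearts and at 1.02 and 0.983 in E8.5 cKO, a ratio of 7.05. At E9.5 the WT libraries (0.173 and 0.0667 FPKM) and the cKO libraries (0.157 and 0.220) overlapped. The mean of *Dleu2* lay above 50.2% of the genes in the table but under the filter of 1 FPKM, and on the log2(FPKM + 1) scale the differences were 0.81 and 0.09. *Trim13* and *Kcnrg* lie within the *Dleu2* locus on the opposite strand. By the study's methods the RNA was amplified with the Smart-seq2 protocol, and the sources used here name no step that keeps strand. At E8.5 *Trim13* had 7.17 and 7.36 FPKM in WT hearts against 7.48 and 4.50 in cKO hearts, which overlap. Its part in the *Dleu2* values was not tested.

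*Mir143hg* (chr18:61645878-61665538, minus strand), the host of *Mir143* and *Mir145a*, was at 2.59 and 3.85 FPKM in E8.5 WT hearts and at 2.90 and 2.06 in E8.5 cKO, which overlap. At E9.5 it was at 1.96 and 2.29 FPKM in WT and at 6.10 and 3.98 in cKO, a ratio of 2.37 with no overlap. The 6 listed smooth muscle and mesenchyme genes summed to 3506 to 4853 FPKM in E9.5 WT and 8492 to 9057 in E9.5 cKO, against 2437 to 3265 and 2808 to 4909 at E8.5. At E9.5 *Acta2*, *Tagln*, *Cnn1* and *Myh11* were above WT in each cKO library, with *Acta2* making up most of the sum (3003 and 4096 FPKM in WT, 6853 and 6565 in cKO). *Myh11* was low, at 0.161 and 0.109 FPKM in WT and 0.660 and 0.359 in cKO. *Pdgfra* (2.39 and 1.56 in WT, 0.718 and 0.818 in cKO) and *Pdgfrb* (2.52 and 2.47 in WT, 0.540 and 0.588 in cKO) were below WT in each. At E9.5 the 6 endothelial and endocardial markers (71.0 to 92.4 FPKM in WT, 141.6 to 162.5 in cKO) and the 8 cardiomyocyte markers (55520 to 58300 in WT, 79070 to 79080 in cKO) had higher sums in cKO hearts, with 4 of 6 and 5 of 8 genes above WT in each cKO library and 1, *Myh6*, below it. In bulk hearts, more cells of a type and more RNA per cell cannot be told apart, and the part of these markers in the *Mir143hg* value was not tested. *Bvht*, a cardiac long non-coding RNA whose row overlaps the *Mir143hg* locus, had E9.5 values of 3.44 and 1.51 FPKM in WT hearts and 3.71 and 1.78 in cKO hearts, which overlap.

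*Snhg4* (chr18:35553410-35558316, plus strand), which holds *Snora74a* and *Mir1949*, was at 9.74 and 12.9 FPKM in E8.5 WT hearts and at 4.02 and 3.33 in E8.5 cKO. At E9.5 it was at 2.52 and 2.89 FPKM in WT and at 0.681 and 0.576 in cKO. The WT means were 3.08 and 4.31 times the cKO means, with no overlap at either stage.

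*Snhg20* was at 15.1 and 23.2 FPKM in E8.5 WT hearts against 12.2 and 14.1 in their cKO counterparts. At E9.5 the WT libraries were at 12.96 and 12.5 FPKM and the cKO libraries at 4.31 and 5.77. The WT to cKO ratio was 1.46 at E8.5, within the 1.53-fold gap between the WT replicates, and 2.53 at E9.5, above the 1.34-fold gap between the cKO replicates.

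*Snhg10* was at 3.15 and 2.83 FPKM in E8.5 WT hearts and at 2.08 and 1.55 in cKO hearts of that stage. At E9.5 its libraries overlapped, at 0.601 and 0.771 FPKM in WT against 0.725 and 1.17 in cKO. *Dubr*, a regulator of a neighbouring gene in muscle progenitors, had E8.5 values of 3.02 and 2.23 FPKM in WT hearts and 0.843 and 2.08 in cKO hearts. Its E9.5 libraries overlapped, at 0.881 and 1.36 FPKM in WT and 1.31 and 0.881 in cKO. The E8.5 cKO replicates of *Dubr* differed 2.46-fold, more than the ratio of its E8.5 means (1.80).

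**Figure D2:**
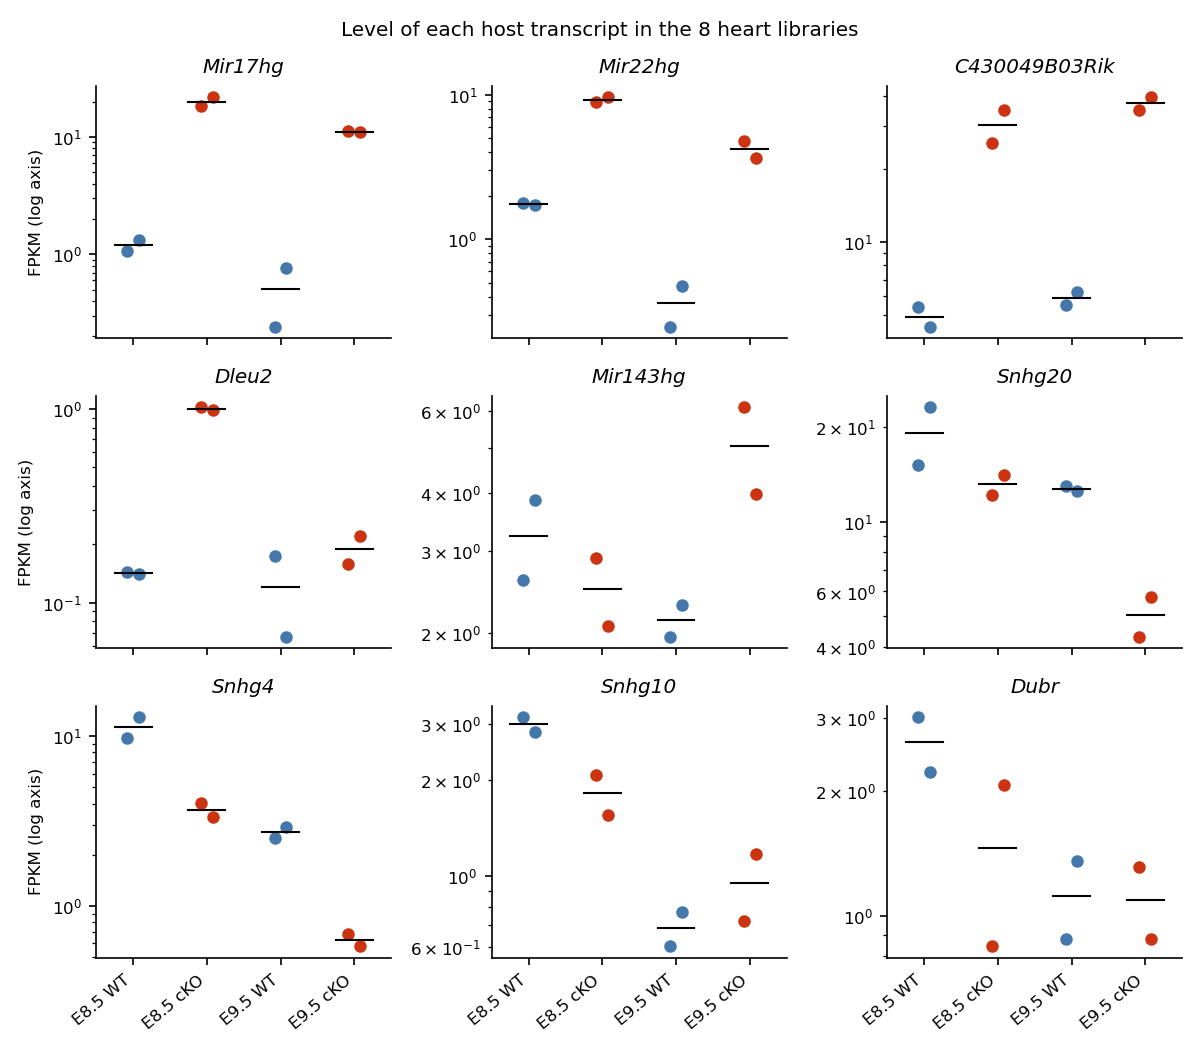
FPKM of each of the 9 transcripts (log axes, 1 panel each) in the 2 libraries of each group (points; blue WT, red cKO) with the group mean (line). The red points of *Mir17hg*, *Mir22hg* and *C430049B03Rik* lie above the blue points at both stages, and those of *Snhg4* and *Snhg20* below.

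In counts, 4 of the 9 were above WT in both cKO libraries at E8.5, 3 of them among the 8 tested, where 2.54% of tested features were. At E9.5 the count was 4 of 9, all tested, against 21.0% of tested features. Of the 8 tested, 4 were below WT in both cKO libraries at E8.5, against 40.1% of tested features, and 2 at E9.5, against 31.1%. The choice of members used these contrasts, so nothing is read from the counts.

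The median difference over the 8 tested (cKO minus WT, log2(FPKM + 1)) was -0.38 at E8.5, beside -0.28 over all tested features, and 0.57 at E9.5, beside -0.07. The E8.5 median was -0.09 with quantile normalization or median-ratio scaling, -0.13 without E8.5 WT replicate 2 and -0.24 without E8.5 cKO replicate 2. Relative to the median feature, *Mir143hg* at E8.5 was at 0.01 and *Snhg20* at -0.20. The differences of *Mir17hg* were 3.25 and 3.03, of *C430049B03Rik* 2.39 and 2.48, of *Mir22hg* 1.88 and 1.93, of *Snhg4* -1.39 and -1.19 and of *Snhg20* -0.48 and -1.20 at E8.5 and E9.5. As a description, 4 tested features, *Mir22hg* included, were at least as high as *Mir22hg* at both stages. The cutoff is a member's value in contrasts known at the listing, so nothing is read from this count. Of the 4 features, 3 were *Mir17hg*, *C430049B03Rik* and *Mir22hg*. The other was *Rnu12*, a short spliceosomal RNA gene picked out after its values were seen. It was listed at 0 in 1 WT library of each stage and at 130.7 and 53.1 FPKM in the other.

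**Figure D3:**
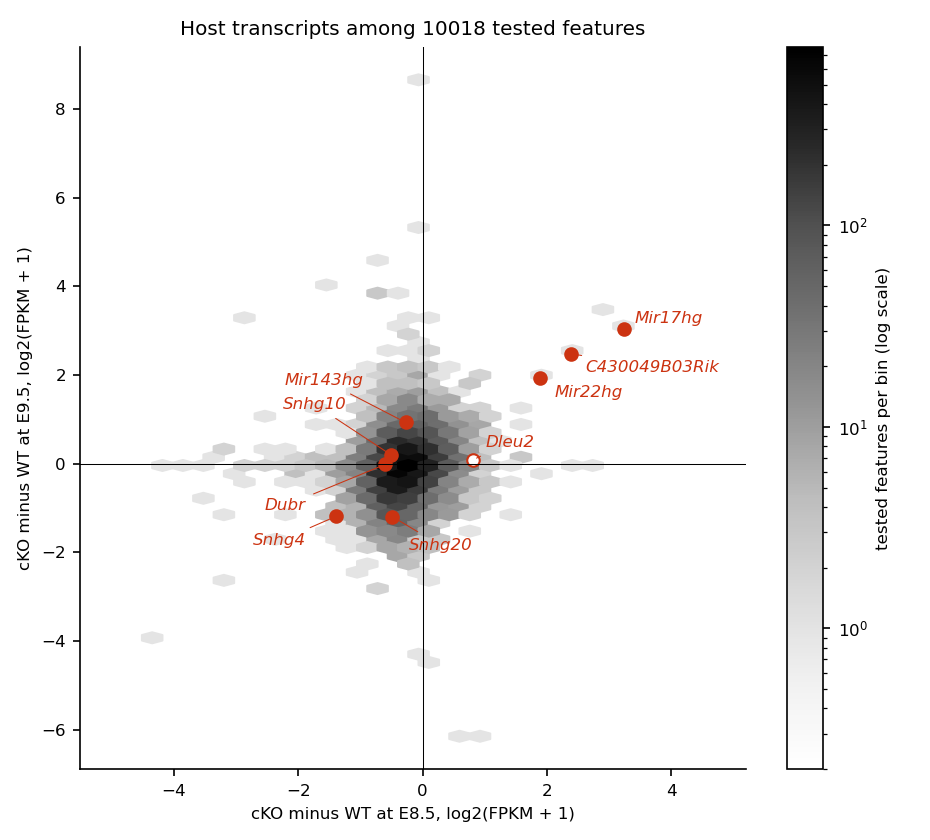
Difference cKO minus WT in log2(FPKM + 1) at E8.5 (x axis) and E9.5 (y axis) for 10018 tested features (grey bins) and the 9 host transcripts (red; *Dleu2*, below the 1 FPKM filter, open). *Mir17hg*, *C430049B03Rik* and *Mir22hg* lie at the upper right, between 1.88 and 3.25 on both axes.

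The stage change, E9.5 minus E8.5, was not the contrast the members were listed for, and was tested with limma across all 10018 features (a call needed a Benjamini-Hochberg adjusted p under 0.05 and a 1.5-fold change). It uses the same libraries as the listing, so its p-values are not fully independent of it. On the deposited scale most features had lower values at E9.5. In WT 46.7% of tested features were called lower at E9.5 and 1.4% higher, with a median change of -0.84. In cKO the shares were 28.5% and 2.05%, with a median of -0.64. This split depends on scaling. With quantile normalization 75 features were called higher and 28 lower in WT, and 244 and 51 in cKO. With median-ratio scaling the counts were 293 and 65 in WT, and 357 and 74 in cKO. On the deposited scale 3 of the 8 were called lower in WT. *Snhg4* fell by 1.72 (SE 0.24, adjusted p 0.00967), *Snhg10* by 1.24 (SE 0.24, adjusted p 0.0127) and *Mir22hg* by 1.02 (SE 0.23, adjusted p 0.0159). In cKO 3 of the 8 fell, *Snhg4* by 1.52 (limma adjusted p 0.0160), *Snhg20* by 1.24 (adjusted p 0.0216) and *Mir22hg* by 0.97 (adjusted p 0.0233). The cKO levels of all 8 were known at the listing, so these cKO calls are a description and no test is read from them. None of the 8 was called higher in either genotype.

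*C430049B03Rik* did not pass in either genotype, with changes of 0.22 in WT (95% interval -0.38 to 0.81) and 0.31 in cKO (-0.29 to 0.91). With quantile normalization the changes were 1.14 in WT and 0.98 in cKO, and with median-ratio scaling 1.06 and 1.07, outside these intervals, and none passed (limma adjusted p 0.0788 to 0.130). *Mir17hg* had changes of -0.56 in WT (adjusted p 0.0936) and -0.79 in cKO (adjusted p 0.0503), and did not pass. It did pass in WT with a pseudocount of 0.1 (-1.24, limma adjusted p 0.0447) and in cKO with libraries rescaled to loci of at least 300 bases (-0.90, adjusted p 0.0386). Its WT means of 1.195 FPKM at E8.5 and 0.505 at E9.5 average under the 1 FPKM filter. It thus entered the fit through its cKO level, and no test is read from its change in WT. With quantile normalization its changes were -0.02 in WT and -0.07 in cKO, and with median-ratio scaling -0.12 and -0.06 (limma adjusted p 0.833 to 0.983). The *Mir143hg* values were -0.42 in WT and 0.78 in cKO, neither of which passed, and with quantile normalization or median-ratio scaling that in cKO was 1.51 or 1.39. Its E9.5 cKO level was known when it was listed, so no test is read from its change in cKO. Leaving out either E8.5 WT library or E9.5 WT replicate 1 ended the WT calls. The WT changes then stayed between -1.91 and -1.54 for *Snhg4*, -1.04 and -0.90 for *Mir22hg*, and -1.30 and -1.17 for *Snhg10*. Leaving out either E9.5 cKO library ended the cKO calls. The cKO changes then stayed between -1.57 and -1.47 for *Snhg4*, -1.41 and -1.06 for *Snhg20*, and -1.14 and -0.81 for *Mir22hg*. The stage values also depend on how libraries are scaled: with median-ratio scaling or quantile normalization none of the 3 WT calls held, and *Mir22hg* and *Snhg20* lost their cKO calls. Under these scalings the WT changes were -0.54 to -0.43 for *Mir22hg* and -0.62 to -0.49 for *Snhg10*. The cKO changes were -0.31 to -0.23 for *Mir22hg* and -0.55 to -0.52 for *Snhg20*. With quantile normalization *Snhg4* lost its cKO call too (-0.98, limma adjusted p 0.0713). With median-ratio scaling the *Snhg4* changes were -0.86 in WT (adjusted p 0.0957) and -1.08 in cKO (adjusted p 0.0452).

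**Figure D4:**
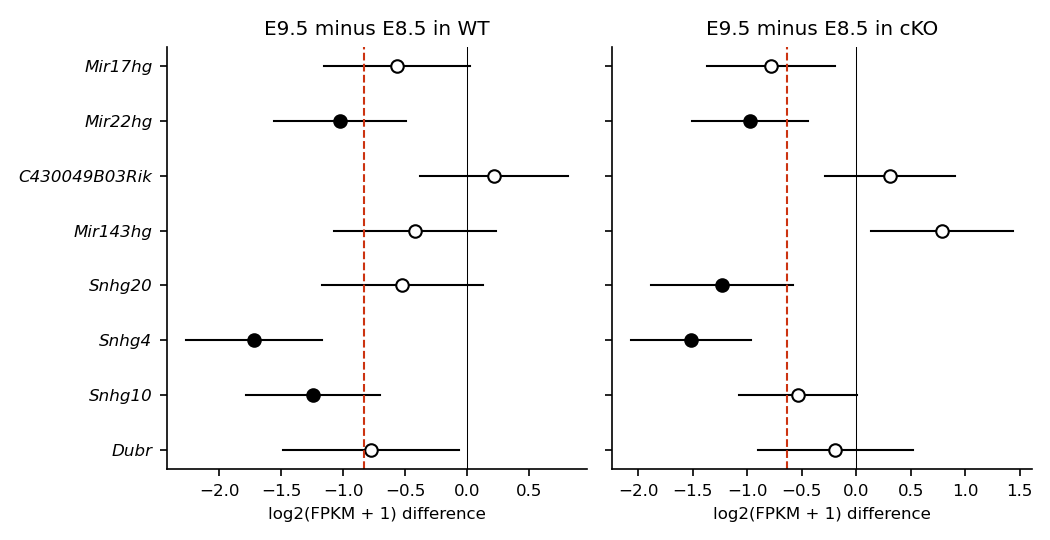
Stage changes of the 8 tested hosts in WT (left) and cKO (right) hearts, in log2(FPKM + 1), with 95% intervals from limma; filled points passed the test and the dashed line is the median of all tested features. *Snhg4* and *Mir22hg* are filled in both genotypes.

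The change of the cKO to WT difference from E8.5 to E9.5 is made of the values known when the members were listed, so it is given with no test. It was -0.22 for *Mir17hg*, 0.05 for *Mir22hg* and 0.09 for *C430049B03Rik*, and of the 8 it was largest for *Mir143hg* (1.20). The *Mir22hg* value depends on the pseudocount, and was 0.94 with a pseudocount of 0.1 and 0.35 with 0.5.

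Over the 8 libraries, as a description, the 2 tested features whose log2(FPKM + 1) pattern was most like that of *Mir17hg* were *Mir22hg* (Pearson r = 0.960) and *C430049B03Rik* (r = 0.943), of 10017 others. All 3 share the genotype difference they were listed for. The nearest features outside the 9 were *Eps8l2* (r = 0.913), *Ass1* (0.895), an enzyme of arginine synthesis, *Adgre5* (0.887), *Mvp* (0.887), the major vault protein, and *Hsd17b2* (0.884). The most opposite were *Sf1* (-0.941), a splicing factor, *Cux1* (-0.937), *Tmem119* (-0.935), *Pdgfrb* (-0.920), a receptor of mural cells, and *Ralb* (-0.910). *Sf1* was at 40.2 to 53.2 FPKM in the 4 WT libraries and 30.1 to 34.5 in the 4 cKO libraries. *Snhg4* and *Snhg20* had r = 0.913 with each other.

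Other hosts were read beside these values. Among 281 tested protein-coding genes with a precursor on their own strand, 1 was at least 1.5-fold higher in E8.5 cKO hearts and 30 at E9.5, with medians of -0.21 and 0.02. Over all tested features 1.6% and 9.09% were. In a list of 28 tested protein-coding genes picked by name as miRNA hosts, 0 were 1.5-fold higher at E8.5 and 5 at E9.5. Not all are hosts by the loci used here. No precursor row lay whole within *Cltc* or *Ppargc1b*, and *Ppargc1b* is among the 5. *Dnm2* and *Iars2* held precursors on the opposite strand only. The 4 genes of the list with the highest levels were *Myh7* (0.938 and 1.31 times WT at E8.5 and E9.5), *Hnrnpk* (0.866 and 0.363), *Myh6* (0.996 and 0.585) and *Ddx5* (0.974 and 0.333). *Mcm7*, the helicase subunit gene whose intron holds the miR-106b cluster, a paralogue of the miR-17 cluster, was named after its values were seen and was at 0.963 and 1.02 times WT.

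Of 20 other listed non-coding hosts, 5 were in the table and none reached a mean of 1 FPKM. *Ftx* was at 1.19 and 0.852 times WT at E8.5 and E9.5 and overlapped at both stages. *Mir99ahg* was at 6.05 times WT at E8.5, with each cKO library above each WT library, and at 1.23 times at E9.5, where libraries overlapped. Its highest value in any library was 0.258 FPKM and 1 E8.5 WT library was at 0. *Dnm3os* was at 2.67 times WT at E8.5, where libraries overlapped, and at 0.118 times at E9.5, with each cKO library below each WT library. *Mir155hg* was at 0.499 times WT at E8.5 and listed at 0 in both E9.5 WT libraries. Outside the listed imprinted hosts, 2 other tested rows that RefSeq names long non-coding held a precursor, *Gm38431* (0.831 and 0.856 times WT) and *2900076A07Rik* (0.549 and 0.423). Among 25 such rows under 1 FPKM, 2 stood above WT in each cKO library at both stages and 15 overlapped at both. *E130102H24Rik*, which holds *Mir101a*, was listed at 0 and at 0.390 FPKM in E8.5 WT hearts and was at 0.862 and 0.912 in E8.5 cKO, and at E9.5 it was at 0.238 and 0.367 in WT and at 1.84 and 2.10 in cKO, 4.55 and 6.51 times WT. *6430411K18Rik*, which holds *Mir433*, a miRNA of the imprinted *Dlk1* and *Dio3* domain, was at 7.69 and 5.14 times WT, with 0.128 to 0.232 FPKM in WT and 0.639 to 1.48 in cKO hearts. *LOC106557447*, which holds *Mir31* and was not found in RefSeq, was listed at 0 in the 4 WT libraries and at 0.0729 to 0.949 FPKM in the 4 cKO libraries.

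The 12 other tested snoRNA hosts gave a background for *Snhg4*, *Snhg20* and *Snhg10*. Of these 12, 8 were below WT in both cKO libraries at E8.5 and 7 at E9.5, with medians of -0.45 and -0.58, both lower than the medians over all tested features. *Snhg6* was at 0.723 and 1.01 times WT, *Snhg9* at 0.549 and 0.327, *Snhg3* at 0.497 and 0.460 and *Snhg1* at 0.736 and 0.971. Over 146 other tested long non-coding RNAs, 87 and 58 were below WT in both cKO libraries, with medians of -0.55 and -0.15.

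**Figure D5:**
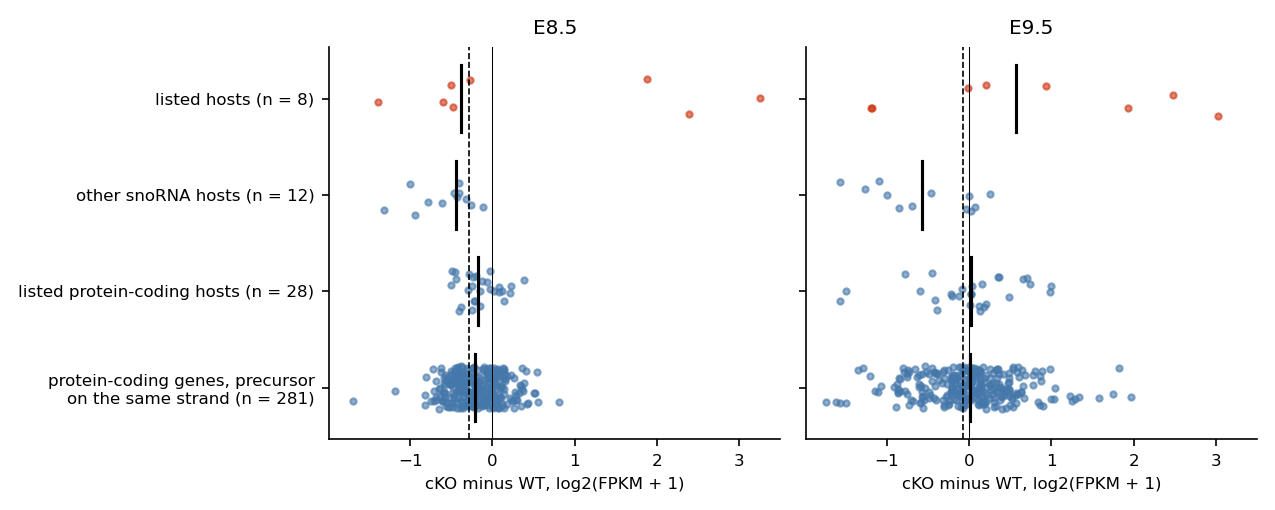
Difference cKO minus WT in log2(FPKM + 1) at E8.5 (left) and E9.5 (right) for the 8 tested listed hosts (red) and for other hosts (blue), with list medians (black bars) and the median of all tested features (dashed). Only red points lie above 2 at both stages, and the medians of the 281 blue protein-coding genes are -0.21 and 0.02.

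Genes of miRNA processing and published regulators of the *Mir17hg* promoter were read from the same libraries. Besides *Dgcr8*, *Drosha*, the microprocessor nuclease, and *Xpo5*, the exporter of cut hairpins, were below WT in both cKO libraries at both stages, at 0.703 and 0.590 times WT and 0.627 and 0.722 times WT. *Ddx5*, a helicase of the same complex and the most abundant gene of the list, overlapped at E8.5 and was below WT in both cKO libraries at E9.5, at 0.333 times WT. *Ddx17*, *Tarbp2* and *Dicer1* overlapped at both stages. At E8.5 *Myc* was at 14.3 and 14.5 FPKM in WT against 9.39 and 25.3 in cKO hearts, and at E9.5 at 18.6 and 9.58 against 7.08 and 6.72. Its libraries overlapped at E8.5, and each cKO library was below each WT library at E9.5. *Mycn* overlapped at both stages, at 0.840 and 1.09 times WT. *E2f1*, a cell cycle factor, was at 1.12 and 3.23 times WT, and was above WT in both cKO libraries at both stages, at 0.416 to 1.97 FPKM over all libraries. *E2f2*, under the 1 FPKM minimum (1.01 and 0.525 times WT), and *E2f3* (0.709 and 0.701) overlapped at E8.5 and were below WT in both cKO libraries at E9.5.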

How the data were processed

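Total RNA of E8.5 and E9.5 hearts was amplified and sequenced by the authors, and reads were mapped with BWA to mm9 per the labels. The deposited table holds FPKM by the authors in 24930 rows. The program that made the FPKM is not given in the sources used here, and the table positions match GRCm38 (90.8% of 23118 row starts lay within 1000 bases of RefSeq). Of a repeated symbol the row with the highest mean was kept. Features with a mean of at least 1 FPKM (10018) were fitted on log2(FPKM + 1) in limma 3.58.1 (R 4.3.3) as 1 model of 4 groups with a variance trend and two-sided Benjamini-Hochberg adjusted p-values, which was tested on simulated data. The interaction of stage and genotype was fitted as planned, and no p-value is given for it because it is made of the differences known at the listing. A fold change on this scale understates that of low genes. Hairpins were folded with ViennaRNA 2.7.2. The 9 members and all lists were chosen with earlier results of these data known. Genes outside the 9 were named by overlap with a member, as the 4 highest of a host list, as the 5 highest and 5 lowest r with *Mir17hg*, or as members of the microprocessor and *Myc* and *E2f* lists, except those said to be named after their values were seen and the few that a count picks out. With 2 libraries against 2, an exact two-sided permutation test cannot go below p = 0.333. Alternatives were scaling, pseudocount, filter, replicate block and leaving out each library. Depth beyond relative depth is unknown.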

Additional observations from a re-analysis of the deposited data

How the results depend on the processing

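The number of members above WT in both cKO libraries stayed at 4 at E8.5 under each alternative tried, and was 4 to 6 at E9.5 when 1 library was left out. The median difference of the 8 tested at E8.5 was -0.0938 with quantile normalization and -0.0939 with median-ratio scaling, and -0.445 to -0.125 without 1 library. At E9.5 it was 0.786 with a pseudocount of 0.1 and 0.491 to 0.661 without 1 library. Calls of a stage change in WT, 3 of 8, went to 0 under quantile normalization and under median-ratio scaling, to 5 with libraries rescaled to loci of at least 300 bases, to 4 with a pseudocount of 0.1 or only the 4 libraries compared, and to 0 to 3 without 1 library (0 without E8.5 WT replicate 1, E8.5 WT replicate 2 or E9.5 WT replicate 1, 3 without E9.5 WT replicate 2). In cKO the count of 3 went to 1 with quantile normalization, where *Mir143hg* was called and none of the 3 held, to 1 with only the 4 libraries compared, to 2 with median-ratio scaling, to 4 with the rescaling to loci of at least 300 bases or with a minimum of 0.1 FPKM, which adds *Dleu2*, listed with its high E8.5 cKO level known, and to 0 to 3 without 1 library (0 without E9.5 cKO replicate 1 or 2). Where leaving out a library left 1 in a group, that library is assumed to vary like the others.

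Signs turned for stage changes that had not passed and for untested differences. In WT, quantile normalization gave stage changes of 0.453 for *Mir143hg*, 0.435 for *Snhg20* and 0.0084 for *Dubr*, and median-ratio scaling 0.304 for *Mir143hg* and 0.431 for *Snhg20*. In cKO, quantile normalization gave 0.0035 for *Snhg10* and 0.336 for *Dubr*, median-ratio scaling 0.227 for *Dubr*, and leaving out 1 library -0.561 to 0.177 for *Dubr*. The change of the cKO to WT difference between stages was -0.158 for *C430049B03Rik* and -0.261 for *Snhg4* with quantile normalization, 0.0676 for *Mir17hg* and -0.223 for *Snhg4* with median-ratio scaling, 0.411 for *Mir17hg* and -0.358 for *Snhg4* with a pseudocount of 0.1, and -0.0135 for *Snhg4* with 0.5. Without 1 library it was -0.475 to 0.0345 for *Mir17hg*, -0.112 to 0.212 for *Mir22hg* and -0.126 to 0.310 for *C430049B03Rik*. The cause of these shifts was not tested.

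Replicate numbers did not pair the samples: deviations of same-numbered libraries correlated at -0.116 to 0.195 between groups. With the number as a replicate block, 3 of 8 were called in WT and 3 in cKO, and 4523 features were lower in WT. With the numbers crossed in WT, an alternative chosen after seeing the data, 4268 were. The absolute depth is not known, so no counting error is given for the values near 0, those of *Dleu2* and of *Mir17hg* and *Mir22hg* in E9.5 WT hearts.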

Other observations

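Targets of the hosted miRNAs were read as a description, with a choice of sites made after other values were seen. In 3′ UTRs of the GENCODE annotation for NCBIM37, 320 tested genes held the miR-17 and miR-20a site GCACTTTA and had median differences cKO minus WT of -0.17 at E8.5 and 0.03 at E9.5 in log2(FPKM + 1). The 357 genes with the site TGCTGCTA of miR-15a, miR-16 and miR-322 had -0.25 and 0.02, and the 194 genes with the miR-22 site GGCAGCTA had -0.26 and -0.04. The 4058 genes with no seed match to the miRNAs of *Mir17hg*, *Mir22hg*, *C430049B03Rik* and *Dleu2* searched had -0.29 and -0.10. Genes with sites had longer 3′ UTRs (medians of 2206, 2299 and 2196 bases against 529), and the part of UTR length was not tested. Median differences at E8.5 and E9.5 were -0.22 and -0.03 for miR-19 sites, -0.13 and 0.05 for miR-92a and -0.23 and -0.07 for miR-18a. They were -0.18 and 0.01 for miR-503 and -0.30 and 0.03 for miR-351. The share at least 1.5-fold higher was 1.9% at E8.5 and 10.1% at E9.5 without a match. It was 0.312% and 11.2% for miR-17 and miR-20a sites, 1.04% and 6.42% for miR-19 sites, 1.99% and 8.46% for miR-92a, and 0 of 126 genes and 6.35% for miR-18a. It was 1.12% and 8.12% for the miR-322 seed, 4.76% and 11.9% for miR-503 (42 genes), 0.677% and 10.4% for miR-351, and 1.03% and 6.70% for miR-22, so the shares lay on both sides of those without a match.

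Among protein-coding rows that hold a precursor, *2610318N02Rik*, which holds *Mir130b* and *Mir301b* and was picked out after its values were seen, had differences of 0.81 at E8.5, where its libraries overlapped, and 1.82 at E9.5, where each cKO library was above each WT library.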
